A study of Mus musculus with 4 samples.

Results

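The receptors for IL-1, IL-18, IL-33 and IL-36 form a gene family of 8 members: Il1r1, Il1r2, Il1rap, Il1rl1, Il1rl2, Il18r1, Il18rap and Sigirr. They were described in γδ T cells of mouse fat that did or did not carry a PLZF reporter, taking each row whose deposited symbol is one of these names. All 8 were found among 46150 genes, and Il1r1, which holds 2 rows at the same position, was summed into 1 gene. Of the 8, 6 reached the mean of 10 normalized counts that a gene needed to be tested, as did 9280 of the 46150 genes. A normalized count is an estimated read count divided by a factor for its library.

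The cells were γδ T cells, T lymphocytes with a γδ antigen receptor, sorted out of epididymal fat of C57Bl/6 males aged 16 to 22 weeks. All mice carried PLZFGFP, a green fluorescent reporter of the transcription factor PLZF (gene Zbtb16), and the sample labels name no other allele or treatment. The name of every table column also holds the code SFD, which no label explains and all 4 libraries share. The cells were divided into PLZF+ and PLZF-, with 2 libraries of each, every one from a pool of 10 mice, and the sequencing libraries were made by SMARTseq2, a full-length method for few cells. The PLZF- libraries are called A6 and B6 and the PLZF+ libraries A7 and B7, after codes in the table columns that the labels do not explain. Whether the same mice gave both subsets is not stated. The p-values rest on spread between pools of mice, both of the gene itself and, through moderation, of the other tested genes.

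Receptors of this family work in pairs. A chain that binds the cytokine (IL1R1 for IL-1, ST2 for IL-33, IL1RL2 for IL-36) joins the shared accessory chain IL1RAP, while IL-18 is bound by IL18R1 and signals with IL18RAP. Their joined intracellular domains recruit MyD88 and IRAK kinases, which activate NF-kB and MAP kinases. IL1R2 is a decoy that binds IL-1 without signalling, and SIGIRR is an inhibitory member. IL-1 with IL-23 is known to drive IL-17 from γδ T cells, IL-18 with IL-12 drives interferon-γ, and IL-33 acts on the ST2+ lymphoid and mast cells of fat.

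Of the genes, 6 lie side by side on the plus strand of chromosome 1, in the order Il1r2, Il1r1, Il1rl2, Il1rl1, Il18r1, Il18rap, over 477.6 kb. Il1rap is on chromosome 16 and Sigirr on chromosome 7. The sequences upstream of neighbours that differed in opposite directions are shown first, as RefSeq gives them for GRCm38.p6, 5′ to 3′ on the plus strand. They are the 250 bases before the first start of Il1r1 (chr1:40224830-40225079), Il1rl1 (chr1:40429320-40429569) and Il18rap (chr1:40515112-40515361), and the whole 133 bases between the end of Il1rl1 and the start of Il18r1 (chr1:40465419-40465551). Capitals mark GATAA, the core of the site known for GATA factors, and, at the end of the Il18rap sequence, GGAAATTCC, the reverse complement of GGAATTTCC, a site of the kind known for NF-kB.
Il1r1: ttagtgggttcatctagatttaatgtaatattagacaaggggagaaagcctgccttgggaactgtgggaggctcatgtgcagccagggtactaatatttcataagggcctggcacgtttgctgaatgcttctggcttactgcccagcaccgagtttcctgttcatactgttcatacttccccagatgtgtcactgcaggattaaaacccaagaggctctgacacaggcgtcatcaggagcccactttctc
Il1rl1: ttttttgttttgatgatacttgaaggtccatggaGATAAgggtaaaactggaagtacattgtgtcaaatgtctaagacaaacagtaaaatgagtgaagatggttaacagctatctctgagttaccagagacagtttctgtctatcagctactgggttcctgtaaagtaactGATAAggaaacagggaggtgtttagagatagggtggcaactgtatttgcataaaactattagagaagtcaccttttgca
Il1rl1 to Il18r1: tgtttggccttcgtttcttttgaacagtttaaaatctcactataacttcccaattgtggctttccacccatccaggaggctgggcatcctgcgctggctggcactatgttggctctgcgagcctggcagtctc
Il18rap: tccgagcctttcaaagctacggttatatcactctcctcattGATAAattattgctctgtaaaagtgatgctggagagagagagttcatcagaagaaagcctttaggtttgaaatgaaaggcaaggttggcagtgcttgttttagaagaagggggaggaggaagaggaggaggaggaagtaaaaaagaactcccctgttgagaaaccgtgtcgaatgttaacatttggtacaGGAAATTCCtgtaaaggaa

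The Il1rl1 sequence held GATAA at 216 to 212 and at 79 to 75 bases before the start, and the Il18rap sequence held it at 209 to 205. The sequences of Il1r1 and of the gap before Il18r1, which is shorter at 133 bases, held none on either strand. Among windows not shown, GATAA lay on the opposite strand before Il1r2 (86 to 82), a gene almost undetected in every library. It also lay there before a later start of Il1rl1 (103 to 99). Upstream windows were found for 7 of the 8 members, 11 windows in all, and GATAA lay on either strand in 4 of the 11 and in 22.6% of all 32851 promoter windows searched. GGAATTTCC, chosen after the sequences were seen, lay in 2 of the 11, before Il1rl2 and before Il18rap, and in 0.286% of all windows. AGGTCA, bound by nuclear receptors, lay in 1 of the 11 (14% of all), TGTGGT, bound by RUNX factors, in 2 (14%), and TGACTCA, bound by AP-1, in 0 (4.46%). No motif contains another, each was searched on both strands, and a match describes the letters only.

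Depth without the rRNA precursor Rn45s was estimated at 744569 and 981885 reads in the PLZF- libraries and at 1837510 and 2035070 in the PLZF+ libraries. Zbtb16, the gene of the sort reporter, had 310.4 and 699 normalized counts in the PLZF- and 2899 and 2921 in PLZF+ libraries, in the direction of the labels. The 4 CD3 chain genes measured summed to 761 and 1197 in PLZF- and to 2371 and 2592 in PLZF+ libraries. CD3 transcripts were thus present in all libraries and lower in PLZF- ones. Rows of the T cell receptor β locus, given below, were higher in PLZF- libraries. Markers of natural killer cells (4378 and 3943 against 295 and 307, 11 genes) and of group 2 innate lymphoid cells (7055 and 5471 against 3136 and 3109, 14 genes) were higher in PLZF- libraries. In bulk libraries fewer cells of a type and less RNA per cell cannot be told apart.

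Receptor genes differed between the subsets in both directions. Il1r1 and Il18r1 were higher in PLZF+ cells, Il1rl1 and Il18rap were lower, and Il1rap and Sigirr did not pass the test. Members called were thus 2 higher and 2 lower of the 6 tested. Of all 9280 genes tested, 2.46% were called higher and 4.97% lower, 7.42% in all. The call needed an adjusted p under 0.05 by limma on log2(normalized count + 1), adjusted by the Benjamini-Hochberg method over all tested genes. The PLZF+ and PLZF- normalized counts did not overlap for any of the 6, with 4 higher and 2 lower, against 24.1% and 27.2% of all tested genes. By FPKM the groups overlapped for Il1rap. With 2 libraries a group this is a weak criterion, since 51.3% of tested genes met it in one direction or the other, and an exact permutation test of a single gene cannot go below p = 0.333. The median log2 fold change of the 6 was 1.01, beside -0.03 over all tested genes.

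**Figure D1:**
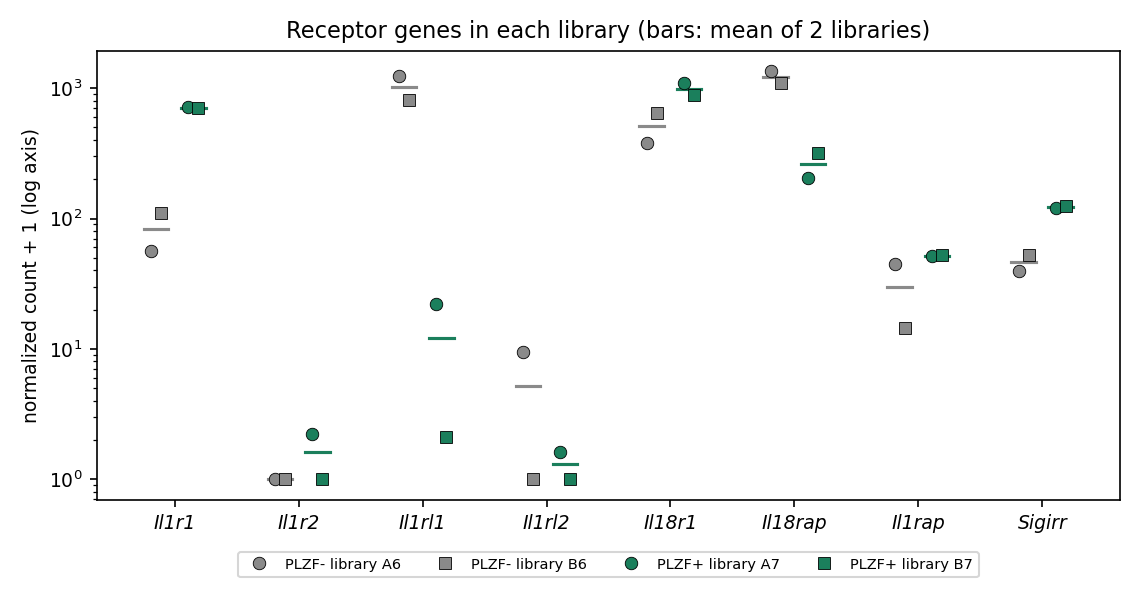
Normalized count + 1 (log axis) of each receptor gene in the 2 PLZF- (grey) and 2 PLZF+ (green) libraries, with bars at the group means. Il1rl1 spans the widest range, from 1230 in PLZF- library A6 to 1.12 in PLZF+ library B7, while the 2 PLZF+ libraries of Il1r1 lie almost on each other at 714 and 705.

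Il1r1 encodes the signalling receptor for IL-1α and IL-1β (chromosome 1, 40225060 to 40316177, mm10). It had 55.7 and 110 normalized counts in the PLZF- libraries A6 and B6, against 714 and 705 in the PLZF+ libraries A7 and B7. Every PLZF+ value was above every PLZF- value, and the PLZF+ libraries were nearly equal. The means were 709 ± 6.59 and 82.7 ± 38.2 (SD, n = 2 each), a log2 fold change of 3.16 ± 0.32 (SE, adjusted p = 7.2e-05, limma), or 8.97-fold. The deposited table splits the gene into 2 rows. The larger row held 74.4% to 82.1% of the gene's counts and rose by 3.24 ± 0.34 (log2 fold change, adjusted p = 7.5e-05, limma). The smaller row had 13.5 and 28.1 normalized counts in the PLZF- and 128 and 160 in PLZF+ libraries, and rose by 2.81 ± 0.50 (log2 fold change, adjusted p = 0.0037, limma). In the authors' deposited table, where 5.73% of tested loci were called, the larger row was among them (log2 fold change 3.23, q = 0.0019) and the smaller was not (2.80, q = 0.11). Il1r1 kept its call when any single library was left out.

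The decoy receptor gene Il1r2 was almost undetected. It had 0 reads in A6, B6 and B7 and 2 reads in PLZF+ library A7, so both subsets were at or under the 3 reads taken here as the limit that a count of 0 allows. No fold is given. The IL-36 receptor gene Il1rl2 had 5 reads in PLZF- library A6, 1 in PLZF+ library A7 and 0 in the other libraries. The ratio of PLZF- to PLZF+ was 12.1 with a 95% counting interval from 1.35 to 570.3, which covers counting error only, since PCR copies are not independent molecules. Differences in these genes were not testable at this depth.

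Il1rl1 encodes ST2, the receptor for IL-33 (chromosome 1, 40429600 to 40465414). It had 1230 and 805 normalized counts in the PLZF- libraries A6 and B6, against 21.1 and 1.12 in the PLZF+ libraries A7 and B7. These PLZF+ values stand for 34 and 2 reads. Both PLZF- libraries were far above both PLZF+ libraries, and the PLZF+ libraries differed from each other by more than the PLZF- libraries did on the log scale. The PLZF- mean was 1017 ± 300.5 and the PLZF+ mean 11.1 ± 14.1 (SD, n = 2 each), which gave a log2 fold change of -7.19 ± 1.10 (SE, adjusted p = 0.019, limma). The size depended on which PLZF+ library was used, at -8.88 without A7 and -5.50 without B7, and the gene was called in both cases. It missed the threshold in the authors' deposited table (log2 fold change -5.97, q = 0.061) and among genes with a mean of at least 50 (adjusted p = 0.066, limma).

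The 2 chains of the IL-18 receptor went in opposite directions. Il18r1, the chain that binds IL-18 (chromosome 1, 40465552 to 40501248), had 376 and 642 normalized counts in the PLZF- and 1088 and 886 in PLZF+ libraries. The groups did not overlap, but the step from the higher PLZF- to the lower PLZF+ library was smaller than the step between the 2 PLZF- libraries. The means were 509 ± 188 and 987 ± 143 (SD, n = 2 each), a log2 fold change of 0.997 ± 0.25 (SE, adjusted p = 0.032, limma). This call rested on single libraries: the adjusted p was 0.11 without PLZF- library A6, 0.39 without A7 and 0.21 without B7 (limma). It was also lost by FPKM (adjusted p = 0.23, limma) and in the authors' deposited table (log2 fold change 0.79, q = 0.26).

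Il18rap, the accessory chain needed for IL-18 signalling (chromosome 1, 40515362 to 40551705), had 1350 and 1103 normalized counts in the PLZF- and 203 and 317 in PLZF+ libraries. Both PLZF- libraries were above both PLZF+ libraries by more than either pair differed. The means were 1226 ± 175 and 259.8 ± 80.9 (SD, n = 2 each), a log2 fold change of -2.26 ± 0.25 (SE, adjusted p = 0.00011, limma), or 4.80-fold lower in PLZF+ cells. The authors' deposited table called it too (log2 fold change -2.39, q = 0.0019). Without any single library the gene stayed called, at -2.58 to -1.94.

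Il1rap, the accessory chain shared by the IL-1, IL-33 and IL-36 receptors (chromosome 16, 26581705 to 26755502), had 43.9 and 13.3 normalized counts in the PLZF- and 50.2 and 51.3 in PLZF+ libraries. In normalized counts the PLZF+ libraries were nearly equal, and A6 was close below them. By FPKM PLZF- library A6 was above both, at 7.93 against 7.475 in A7 and 7.13 in B7. The difference was 1.03 ± 0.63 as a log2 fold change (SE, adjusted p = 0.39, limma), and it ran from 0.21 without B6 to 1.85 without A6. The low PLZF- value of 13.3 stands for about 10.9 reads.

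Sigirr, an inhibitory member of the family (chromosome 7, minus strand, 141090962 to 141100546), had 38.8 and 51.2 normalized counts in the PLZF- and 120 and 124 in PLZF+ libraries. The PLZF+ libraries were above the PLZF- ones by more than either pair differed. Its log2 fold change of 1.43 ± 0.40 lay at the threshold and did not pass (SE, adjusted p = 0.0501, limma). In the authors' deposited table it had a log2 fold change of 1.61 and q = 0.055. It passed with other choices, with adjusted p from 0.012 to 0.049 (limma) in 6 of them, and did not pass when any single library was left out.

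Levels of different genes were compared by the deposited FPKM, which corrects for gene length. In PLZF- libraries A6 and B6, Il18rap was the highest member (256 and 188 FPKM), followed by Il1rl1 (169 and 111) and Il18r1 (59.7 and 108). In PLZF+ libraries A7 and B7, Il18r1 was the highest (153 and 135 FPKM), followed by Il1r1 (86.6 and 86.2). Il1rl1 and Il18r1 were close in B6, and the order of Il18rap and Sigirr changed between the PLZF+ libraries (35.2 and 42.7 FPKM in A7, 48.8 and 42.7 in B7), so these neighbours are not separated. The family summed to 514 and 439 FPKM in PLZF- and to 330.4 and 319.9 in PLZF+ libraries.

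As shares of that sum, Il1rl1 went from 32.8% and 25.4% in PLZF- to 1.27% and 0.072% in PLZF+ libraries, and Il18rap from 49.8% and 42.9% to 10.7% and 15.3%. Il1r1 went from 1.28% and 3.01% to 26.2% and 26.9%, and Il18r1 from 11.6% and 24.6% to 46.4% and 42.1%. Shares of one sum are not independent of each other.

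**Figure D2:**
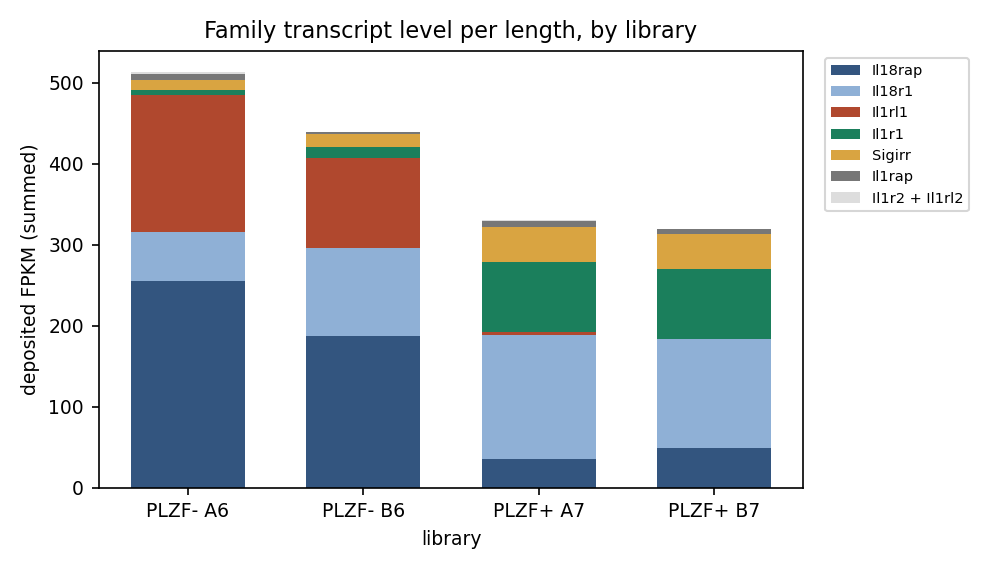
Deposited FPKM of the family members stacked for each of the 4 libraries, so that the height of a bar is the family's sum (514, 439, 330.4 and 319.9 FPKM in A6, B6, A7 and B7). Il18rap (dark blue) and Il1rl1 (red) fill most of the PLZF- bars, and Il18r1 (light blue) and Il1r1 (green) fill most of the PLZF+ bars.

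The balance between members was also compared, for chains that pair and for some that do not. The FPKM ratio of Il18r1 to Il18rap was 0.233 and 0.575 in the PLZF- libraries A6 and B6, against 4.35 and 2.76 in the PLZF+ libraries A7 and B7. The binding chain was thus below the accessory chain in both PLZF- libraries and above it in both PLZF+ libraries. The FPKM ratio of Il1r1 to Il1rap was 0.833 and 7.69 in PLZF- and 11.6 and 12.1 in PLZF+ libraries, where the wide PLZF- range comes with an Il1rap of 1.72 FPKM in B6. The ratio of Il1rl1 to Il1rap was 21.3 and 64.7 in PLZF- libraries against 0.560 and 0.0323 in PLZF+ libraries. Between chains that do not pair, the ratio of Il1rl1 to Il1r1 was 25.6 and 8.42 in PLZF- libraries against 0.0484 and 0.00267 in PLZF+ libraries. Il1r1 was below the inhibitory Sigirr in PLZF- libraries (ratios of 0.554 and 0.810) and above it in PLZF+ libraries (2.03 and 2.02). These ratios are descriptions of 4 libraries and were not tested. Transcript levels do not give the amounts of protein at the surface.

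Set against all tested genes, the percentile of the FPKM of Il1r1 was 28.2 and 50.8 in PLZF- and 92.5 and 92.6 in PLZF+ libraries. That of Il1rl1 was 96.3 and 94.3 in PLZF- and 19.7 and 2.55 in PLZF+ libraries. Il18r1 stayed high throughout, from 87.9 in A6 to 95.8 in A7, and Il18rap ranged from 80.0 in A7 to 97.6 in A6.

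Along chromosome 1 the called members alternated in direction. From Il1r1 (log2 fold change 3.16) the next tested neighbour was Il1rl1 (-7.19), then Il18r1 (0.997) and Il18rap (-2.26), all on the plus strand, with Il1rl2 between the first pair at a few reads. Il1rl1 and Il18r1 are 136 bases apart in the GENCODE annotation, and Il18r1 and Il18rap 14507 bases apart. How the authors' counting treated strand and such ends was not given, so reads near the junction could be assigned to either gene. Il1r2 overlaps the antisense gene Gm16894, which had 0 counts, and Il1rap overlaps the antisense gene Gm20319, with a mean of 0.322.

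Outside the cluster, few neighbours were expressed. Of the 5 protein-coding genes on either side, Creg2, Rfx8, Gm3646, Slc9a4, Slc9a2, Tmem182 and Pou3f3 were at 0 in all 4 libraries. Map4k4, a kinase gene, had 121 and 123 normalized counts in the PLZF- and 60.1 and 65.8 in the 2 PLZF+ libraries (log2 fold change -0.95 ± 0.37, adjusted p = 0.17, limma). Rnf149, which shares its row with AK040602, had 37.1 and 17.1 in PLZF- and 3.10 and 16.7 in PLZF+ libraries (-1.62 ± 0.95, adjusted p = 0.37, limma). Mfsd9 did not reach the filter. An unnamed locus between Il1rl2 and Il1rl1 (40391839 to 40392397) had 10 reads in PLZF- library B6 and 0 elsewhere, and the authors' deposited table called it (q = 0.049).

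**Figure D3:**
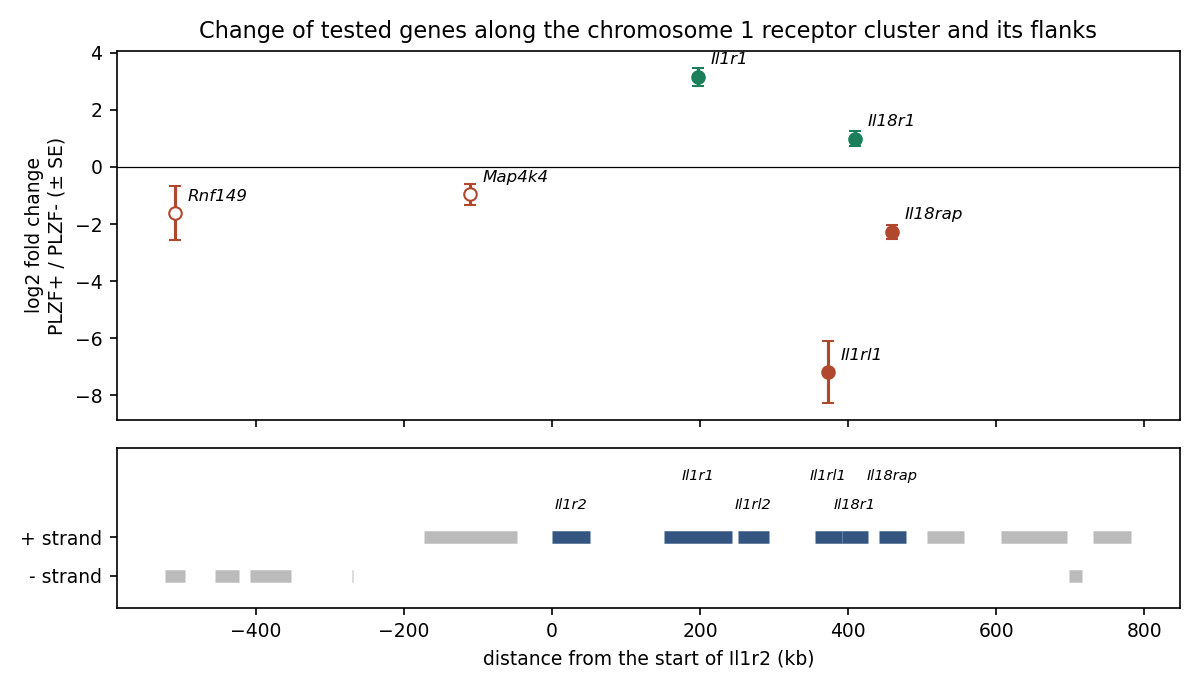
Log2 fold change of PLZF+ over PLZF- cells (± SE) for tested genes, against distance in kb from the start of Il1r2, with gene positions and strands drawn below. Filled points passed the test and open points did not; Il1r1 (3.16), Il1rl1 (-7.19), Il18r1 (0.997) and Il18rap (-2.26) alternate around 0.

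Tested genes with the most similar profiles were found by the smallest Euclidean distance over the 4 libraries on the centred log2 scale. Rows that were unnamed, predicted, clone-named, of antigen receptor segments or of several symbols were left out, so nearer rows may exist among them. The genes named are the nearest of the rest. For Il1r1 these genes were Blk, a Src-family kinase of IL-17-producing γδ T cells (distance 0.149), Prelid2 (0.357) and Capg, an actin-capping protein (0.367). For Il1rl1 they were Ccr8, a chemokine receptor (0.669), Il10ra, the IL-10 receptor chain (0.893), and Trf, transferrin (0.895). For Il18r1 they were Faap20 (0.083), Enox2 (0.093) and Thy1, a surface protein of T cells (0.097), none of which passed the test. For Il18rap they were Vav3, a guanine exchange factor (0.051), Satb1, a chromatin organiser (0.138), and Tspan13, a tetraspanin (0.336). With 4 points, many genes share such a profile.

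Il1rl1 is also expressed by group 2 innate lymphoid cells and mast cells, so their markers are given beside it. Il5, the cytokine gene of type 2 lymphocytes, had 707 and 494 normalized counts in the PLZF- and 17.3 and 2.79 in PLZF+ libraries, and Ccr8 had 309 and 250 against 5.57 and 0. Both were higher in PLZF+ library A7 than in B7, as Il1rl1 was. Of the 9 tested markers of group 2 innate lymphoid cells, 7 fell (7 at an unadjusted p under 0.05), beside 4.97% lower among all tested genes. The call of Klrg1 was lost without B6 (log2 fold change -5.97), and Rora and Il2ra did not pass.

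Mast cell markers summed to 1328 and 683 in the PLZF- libraries A6 and B6, and to 416 and 53.0 in the PLZF+ libraries A7 and B7. The sum had the same order of libraries as Il1rl1, but its members were mixed. Kit, Cma1 and Hdc followed that order, while Cpa3, Tpsb2, Tpsab1 and Mcpt4 were in A7 at or above their value in B6. Tpsb2 had 82.7 and 45.1 against 83.0 and 1.12, and Mcpt4 164 and 82.9 against 83.0 and 0. Of the 7 tested, 1 fell, Kit (278 and 248 against 18.0 and 12.3), beside 4.97% lower among all tested genes. Cpa3, a mast cell protease, had 294 and 65.9 against 73.7 and 17.9 and did not pass. Of the 11 mast cell markers, 2, 2, 2 and 6 were at 0 in A6, B6, A7 and B7. The part of such cells in the Il1rl1 values was not tested.

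Il18rap is also expressed by natural killer cells. Their 10 tested markers all fell in PLZF+ cells, where 4.97% of all tested genes were lower. Ncr1, an activating receptor, fell from 693 and 694 normalized counts to 3.72 and 3.91. Without A6, Klre1, Gzma and Klri2 were not called (adjusted p = 0.16, 0.27 and 0.22, limma), nor was Gzma without B6 (0.13). Of the 11 listed, 0, 0, 4 and 6 were at 0 in A6, B6, A7 and B7. Their part in the Il18rap values was not tested. The 4 CD3 chain genes rose in PLZF+ cells, where 2.46% of all tested genes were higher. Their log2 fold changes were 1.08 to 1.55, beside 3.16 for Il1r1 and 0.997 for Il18r1. Cd3e (1.22) and Cd3d (1.08) lost their calls when A6, A7 or B7 was left out. Cd3g lost its call without A7 or B7, and Cd247 without B7. Fold changes of the receptor genes relative to CD3 were not tested.

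Myeloid and stromal cells of fat express IL-1 receptor genes too. Of 9 neutrophil markers, 8 were at 0 in all libraries, among them S100a8 and S100a9. Mmp9, the other one, had 40.5 and 35.4 against 2.48 and 0 and did not pass (log2 fold change -4.38, adjusted p = 0.054, limma). At 0 in all libraries were also 7 of 8 stromal markers, among them Pdgfra, Col1a1 and Col1a2. Dpp4, the stromal marker detected, fell (128 and 56.1 against 6.19 and 0), a call lost without A6, B6 or B7 (adjusted p = 0.21, 0.067 and 0.051, limma). Of 12 macrophage markers, 6 were at 0 in all libraries and only Ccr2, which T cells also express, was tested (log2 fold change 0.66 ± 0.17, adjusted p = 0.030, limma, and 0.24, 0.072 and 0.46 without A7, B6 and B7). Of 8 αβ T cell markers, 5 were measured, since Trac, Trbc1 and Trbc2 have no row of their own, and the 5 summed to 60.7 and 34.1 in PLZF- and 53.9 and 16.2 in PLZF+ libraries, but 12 rows of the T cell receptor β locus (symbol Tcrb, taken after the values were seen) summed to 3516 and 2157 against 1252 and 933. Adipocyte markers summed to 23.6 and 15.9 against 13.6 and 5.02. Pecam1, an endothelial gene that leukocytes share, had 99.5 and 115 against 160 and 153 and did not pass. Dendritic cell markers summed to 1603 and 737 in PLZF- and 191 and 65.3 in PLZF+ libraries, in the same order of libraries as Il1rl1. Of the 9 tested, 4 were lower, beside 4.97% of all tested genes. These calls were lost without A6 for Siglech, Itgax and Cd74 (adjusted p = 0.20, 0.15 and 0.082, limma), without B6 for these 3 and H2-Aa (0.053 to 0.060) and without B7 for Cd74 (0.064).

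**Figure D4:**
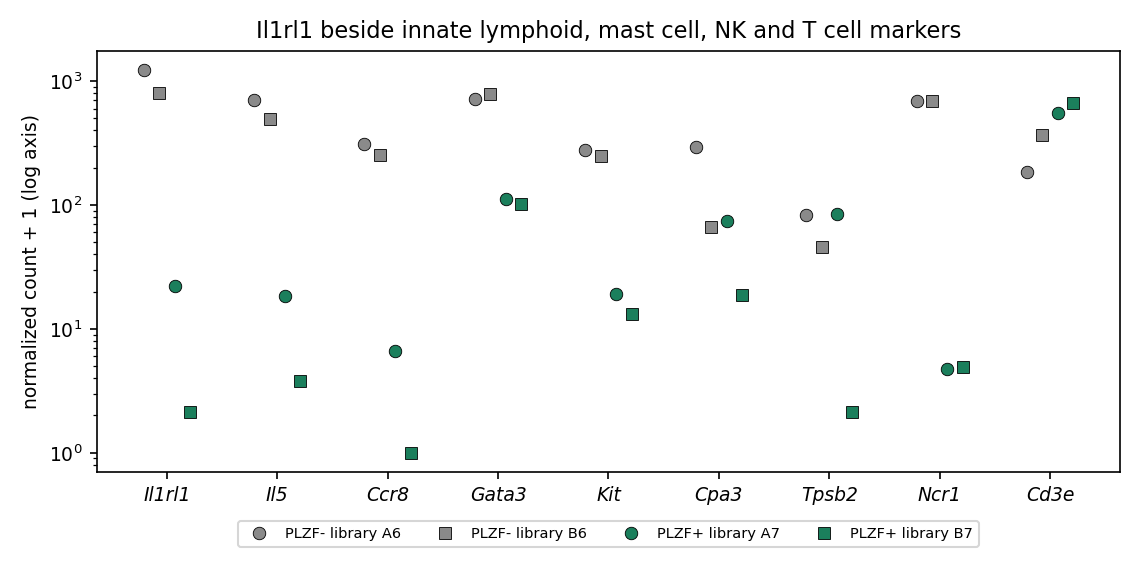
Normalized count + 1 (log axis) of Il1rl1 beside markers of innate lymphoid cells (Il5, Ccr8, Gata3), mast cells (Kit, Cpa3, Tpsb2), natural killer cells (Ncr1) and T cells (Cd3e) in each library. Il1rl1, Il5, Ccr8, Cpa3 and Tpsb2 are higher in PLZF+ library A7 than in B7, as are Kit (18.0 and 12.3) and Gata3 (111 and 101) by less. Ncr1 is near 4 in both, and Cd3e is higher in B7.

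The ligands were hardly detected in the sorted cells. Of 11 ligand and soluble inhibitor genes, 9 were at 0 in all libraries, among them Il1a, Il18 and Il33, and 0 of 11 were tested. Il1b had 13.5 and 13.4 normalized counts in the PLZF- and 2.48 and 0 in PLZF+ libraries, and Il18bp, which neutralises IL-18, had 10.1 and 0 against 8.05 and 3.91. Of 8 inflammasome genes, whose products process IL-1β and IL-18, 6 were tested by limma and 0 passed. At an unadjusted p under 0.05, 0 were higher and 4 lower, and 1 was called lower with a pseudocount of 4, with equal totals, or without A7 or B6. The share of all tested genes at that unadjusted p is not given here. The median log2 fold change of the 6 was -1.34. Casp4 had 74.2 and 79.3 against 29.1 and 2.79, and Pycard, the adaptor ASC, 81.0 and 51.2 against 66.9 and 83.7.

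Downstream of the receptors, 14 of 17 adaptor and kinase genes were tested, of which 1 rose, 1 fell and 12 did not pass (median log2 fold change -0.34). With 2.46% of all tested genes higher and 4.97% lower, 1 call each way among 14 is close to the background. Irak3, an inhibitory IRAK, had 15.2 and 42.7 normalized counts in the PLZF- and 138 and 110 in PLZF+ libraries. It rose by 2.23 ± 0.53 (adjusted p = 0.0225, limma), and was not called without A6, A7 or B7 (0.063, 0.30 and 0.22, limma). Peli1, a ubiquitin ligase of the pathway, had 261 and 234 against 62.6 and 65.8, and fell by 1.93 ± 0.32 on the log2 scale (adjusted p = 0.0027, limma). The central adaptor Myd88 did not pass, at 33.7 and 41.5 in PLZF- and 57.0 and 56.4 in PLZF+ libraries. Irak2 (log2 fold change 0.08), Tab2 (-0.28), Tollip (-0.76) and Traf6 (-0.95) did not pass either.

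All 25 genes of the NF-kB and MAP kinase arm were tested, of which 0 rose (0 at an unadjusted p under 0.05, and 0 in the authors' deposited table), 5 fell and 20 did not pass, beside 4.97% lower among all tested genes. The median log2 fold change was -0.67. Nfkbiz, an atypical IkB protein whose row it shares with the alias IKAPPAB-ZETA, had 729 and 682 normalized counts in the PLZF- and 115 and 48.0 in PLZF+ libraries, and fell by 3.23 ± 0.36 (log2 scale, adjusted p = 0.00015, limma). The subunit genes Rel (1235 and 740.3 against 301 and 216, in a row shared with Gm20645) and Nfkb1 (1481 and 973 against 487 and 352) fell, as did the feedback inhibitors Nfkbia (968 and 1000.1 against 424 and 247) and Tnfaip3 (1864 and 2542 against 1125 and 1133). Without B7, Nfkb1, Nfkbia and Tnfaip3 lost their calls (adjusted p = 0.092, 0.071 and 0.17, limma) and 2 of the 25 remained lower, and Tnfaip3 lost it also without A7 (0.15) and with equal totals (0.31). Dusp1, Ikbkb, Nfkb2 and Map2k3 did not pass.

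Of 12 cytokine genes known to be induced through these receptors, 8 were tested, 1 rose, 4 fell and 3 did not pass, where 2.46% of all tested genes rose and 4.97% fell. Il17a had 10.1 and 25.6 normalized counts in the PLZF- and 206 and 65.3 in PLZF+ libraries. It rose by 2.77 ± 0.64 (log2 scale, adjusted p = 0.020, limma). The call was lost by FPKM (adjusted p = 0.071, limma) and without A6, A7 or B7. Il5 fell by 6.15 ± 0.62. Csf2, which encodes GM-CSF (420.1 and 412 against 8.05 and 1.12), fell by 6.57 ± 0.65. Areg, an epidermal growth factor receptor ligand, fell by 3.63 ± 0.56. Il6 (105 and 50 against 3.10 and 0) fell by 5.18 ± 1.05, a call lost without A6 or B6 (adjusted p = 0.25 and 0.067, limma). Ifng (48.9 and 4.88 against 0.619 and 0), Il17f and Tnf did not pass. Il13 (11.8 and 22.0 against 1.24 and 0.558) did not reach the filter.

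Receptors for the cytokines that act together with this family also split. Of 12 listed, 10 were tested, 2 rose, 3 fell and 5 did not pass, beside 2.46% and 4.97% of all tested genes. Il23r, the specific chain of the IL-23 receptor, had 191 and 272 normalized counts in the PLZF- and 1810 and 1590 in PLZF+ libraries, and rose by 2.89 ± 0.22 (log2 scale, adjusted p = 1.4e-05, limma). Il12rb2, the specific chain of the IL-12 receptor, had 501 and 467 against 1.24 and 3.35, and fell by 7.28 ± 0.55 (adjusted p = 1.4e-05, limma). Il12rb1, shared by both receptors, rose by 2.81 ± 0.51, but not when A7 or B7 was left out (adjusted p = 0.070 and 0.11, limma). Il23r was thus higher in the subset with the higher Il1r1, and Il12rb2 in the subset with the higher Il18rap, over the same 4 libraries. The chain that binds IL-18, Il18r1, differed in the opposite direction to Il12rb2 (log2 fold change 0.997). Il21r fell by 1.91 ± 0.38 (0.057 and 0.13 without B6 and B7, limma) and Il2rb by 0.81 ± 0.18 (0.091 and 0.36 without A7 and B7, and -0.42 with 0.46 under equal totals, limma). Without B7, 1 of the 10 was lower. Il7r, Il2rg, Il2ra and Crlf2 did not pass.

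Of 7 transcription factors of lymphocyte subsets listed, 6 were tested, 3 rose and 2 fell, beside 2.46% and 4.97% of all tested genes. The 3 include Zbtb16, whose reporter defined the sort, so its direction was set by the design and is no result. Besides Zbtb16 itself, Sox13 rose by 2.75 ± 0.43 and Maf by 1.09 ± 0.22 on the log2 scale. Sox13 lost its call without A7 (adjusted p = 0.051, limma), and Maf without A7 or B7 (0.25 and 0.099, limma). Gata3, whose product drives type 2 lymphocytes and whose row is shared with 9230102O04Rik, had 719 and 790.3 normalized counts in the PLZF- and 111 and 101 in PLZF+ libraries, and fell by 2.82 ± 0.24 (log2 scale, adjusted p = 2.5e-05, limma). Tbx21, the gene of T-bet, fell by 2.13 ± 0.48 (adjusted p = 0.017, limma), a call lost without A7, B6 or B7 (0.17, 0.11 and 0.071). Rora did not pass.

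The direction of the 6 tested members was the same under each alternative that gave a value, while their calls were not. Il1rap gave none at a minimum mean of 50. The filters, the moderation and the code letter leave the log2 fold change unchanged. Another pseudocount, or leaving out a single library, cannot reverse groups whose normalized counts do not overlap. The shared direction is thus little support. Il1r1 ran from 2.68 to 3.65 on the log2 scale, Il1rl1 from -8.88 to -5.50, Il18r1 from 0.61 to 1.38 and Il18rap from -2.58 to -1.88. Scaling the libraries to equal totals without Rn45s moved the median of all genes by 0.38, and relative to that median the members' values changed little (Il18r1 1.03, Il18rap -2.23).

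**Figure D5:**
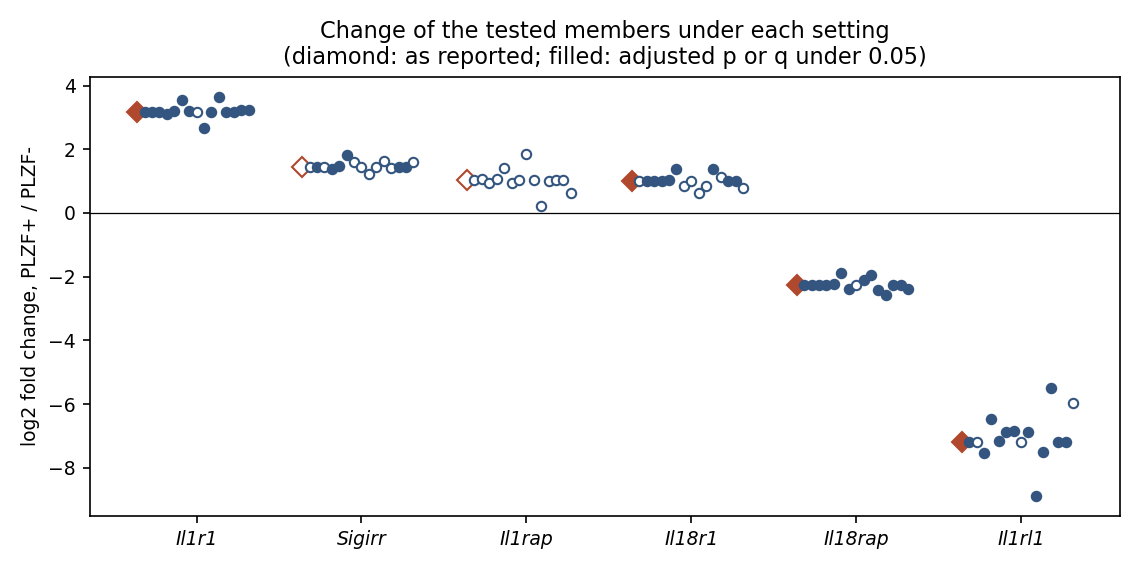
Log2 fold change of PLZF+ over PLZF- cells for each tested member under the reported setting (diamond) and each alternative (circles), filled where the adjusted p or q was under 0.05. Each of the 6 genes stays on its side of 0. Il1rap has open points only, and every other gene has both filled and open points.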

How the data were processed

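Per the submitters' processing notes, reads were processed on mm10 with HISAT 0.1.6, SAMtools 1.2, Cufflinks 1.2 and Cuffdiff. Annotation and strand setting are, for this series, not given in the sources used here. From Cuffnorm, the authors deposited normalized counts (a signal, not raw counts) and FPKM, and per locus Cuffdiff's log2 fold change, p-value and q-value. Its fold column was unreadable at 1321 loci.

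Loci were named through GENCODE M21 and RefSeq synonyms on GRCm38, the assembly of mm10, refusing 587 names whose annotated gene lay elsewhere. Rows of 1 gene were summed (503 genes). Rows with several symbols were kept whole. Rn45s, at 0 in B7 and 26.8% to 33.2% of the total elsewhere, was left out. One read was worth 0.558 to 1.69 normalized counts.

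Genes were tested in R 4.3.3 by limma 3.58.1 with trend and robust moderation, two-sided and adjusted over genes with a mean of at least 10. Its fold changes, on log2(normalized count + 1), understate those of low genes. In data simulated for this comparison over 9280 genes (1 dispersion, 0.0741, for all), it called 4% of 2-fold, 80% of 4-fold, 96% of 8-fold and 100% of 16-fold changes, and 3 of 9080 unchanged genes. Tables used pandas 2.3.3, scipy 1.17.1 and numpy 2.4.6 under Python 3.11.15; figures used matplotlib 3.10.9.

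Members, lists and tests were chosen with earlier results of these data known. Named were all members, list genes past the threshold and up to 4 others of the highest mean, flanking genes, up to 3 leading markers, and 3 nearest profiles per called member. Other genes were named after their values were seen. 1 listed transcription factor is not reported here.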

Additional observations from a re-analysis of the deposited data

How the results depend on the processing

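No paired analysis was possible because the labels' replicate numbers do not appear in the table columns; a fit with the letter of the column code, which no label ties to replicates, was run instead. voom and the edgeR count test were not run, since the share of values at whole reads (tolerance 0.05), 92.4% to 94.2%, was not taken as nearly all. Of all genes, 228 were higher and 461 lower; 391 were higher with equal totals (55.9% of calls higher, against 33.1%), 109 and 243 with FPKM, 28 and 180 without trend and robust moderation, and 426 and 693 with the letter of the column code as a term (1 residual degree of freedom). Leaving out 1 library gave 34 to 315 higher and 231 to 300 lower: 221 and 231 without A6, 44 and 300 without A7, 315 and 296 without B6, 34 and 236 without B7. The lone library was assumed to vary like the other group.

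Of the members, 2 higher and 2 lower became 1 higher with no filter or FPKM (Il18r1 lost), 1 lower at a minimum mean of 50 (Il1rl1 lost), and 1 and 1 in the authors' deposited table (Il18r1 and Il1rl1 lost). By limma without trend and robust moderation, 0 and 0 passed (2 and 2 at an unadjusted p under 0.05; adjusted p = 0.056 for Il1r1, 0.069 for Il1rl1, 0.35 for Il18r1 and 0.089 for Il18rap). Leaving out 1 library gave 1 to 2 higher and 2 lower, 1 higher without A6, A7 or B7. Sigirr passed at a minimum mean of 50, a pseudocount of 4, either other scaling, with the code letter and with rows unsummed. No member reversed. Of 182 list counts under alternatives, 149 stayed within 1.5 times and 33 did not. The 5 lower genes of the NF-kB list became 3 with FPKM and 0 without trend and robust moderation. With FPKM the calls of Irak3, Il17a, Il6, Il12rb1, Il2rb, Maf and Tbx21 were also lost (adjusted p from 0.067 to 0.093, limma). Among the markers, so were those of Cd3e, Cd3d, Prf1, Itgax, Cd74, Dpp4 and Ccr2. The causes were not tested. Depth limits Il1r2, Il1rl2 and Il1rl1 in PLZF+ cells.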

Other observations

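Toll-like receptors share the intracellular domain of this family and its MyD88 pathway; this list and the next were chosen after the data were seen. Of 12 such genes, 2 reached the filter and 0 passed by limma (0 at an unadjusted p under 0.05), and 4 were at 0 in all libraries. Their summed normalized counts were 111 and 57.3 in the PLZF- libraries A6 and B6, against 12.4 and 10.6 in the PLZF+ libraries A7 and B7. Tlr7, an RNA sensor, had 35.4 and 4.88 in PLZF- and 0 in both PLZF+ libraries, and Tlr1, a lipopeptide sensor, had 6.75 and 36.6 against 9.29 and 1.12.

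IL-17 receptor chains carry a related intracellular fold. Il17re, the chain that binds IL-17C, had 25.3 and 37.8 normalized counts in the PLZF- and 222 and 309.7 in PLZF+ libraries, and rose by 3.04 ± 0.39 on the log2 scale (adjusted p = 0.00042, limma, and 0.0503 without B7). Its partner Il17ra had 113.0 and 227 against 87.3 and 89.3 and did not pass (log2 fold change -0.85, adjusted p = 0.24, limma). Il17rc had 0 and 7.32 against 21.1 and 15.1 and did not pass. Il1rapl1 and Il1rapl2, members of the wider IL-1 receptor family known from the nervous system, were at 0 in all libraries.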
